A study of Homo sapiens with 4 samples.

Results

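The replication-dependent histone cluster on the short arm of chromosome 6 was examined as open chromatin in 3 windows on hg19, at 26.015 to 26.290 Mb, 27.090 to 27.120 Mb and 27.770 to 27.865 Mb. Members were all listed peaks with a midpoint in these windows, which span 275 kb, 30 kb and 95 kb, or 400 kb together. The 4 lists held 214 such peaks among 234140, and peaks sharing at least 1 bp merged into 77 regions among 78788. Position alone chose them, so their number, width and strength were not used in the choice.

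The data were ATAC-seq peak lists, in which a transposase marks open chromatin, from HCT116, an established line of human colorectal cancer cells, with wild-type genotype. In the control group 2 libraries came from cells kept for 6 h in 0.1% DMSO, the solvent. In the treated group 2 libraries came from cells kept for 6 h in tunicamycin at 0.5 µg/ml, an inhibitor of protein N-glycosylation that causes endoplasmic reticulum stress. Each library was made from 50000 cells, and the series calls the 2 libraries of a group biological replicates without naming separate cultures, so p-values measure only the spread between these libraries. The cells are a bulk culture, so a larger share of cells with an open site and a wider opening in each cell cannot be told apart. No hg19 annotation was used here, so regions are named by position, no peak was assigned to a gene, and the cell line was not checked against marker genes.

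Replication-dependent histone genes encode the core histones H2A, H2B, H3 and H4, which form the nucleosome, and the linker histone H1, which binds the DNA between nucleosomes. They are transcribed mainly in S phase, when new DNA must be packaged, mostly lack introns, and give messages that end in a stem-loop and not in a poly(A) tail. Their transcription and processing are concentrated at the histone locus body, a nuclear body that contains the coactivator NPAT. Many H2A and H2B genes lie head to head and share a short promoter.

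The RefSeq gene table (GRCh38.p14) lists 68 histone entries under the names of this cluster on chromosome 6, of which 55 are protein-coding and 12 are pseudogenes. The protein-coding genes comprise 6 for H1, 12 for H2A, 15 for H2B, 10 for H3 and 12 for H4. Because that table and the peaks use different builds, it served for names, order and promoter sequence only, and some of these genes may lie outside the windows. The strand was known only for the 50 genes with a RefSeq promoter, so a pair with any other gene could not be counted. Among those 50, in 13 places neighbours in order of gene start stand head to head. Of these, 9 are pairs of an H2A and an H2B gene. The promoter windows of all 9 pairs, from 250 bases before to 50 after each start, share 253 to 293 bases.

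RefSeq promoters were found for 50 of the 55 genes, and 4 are shown because they hold the sequence elements that the families of the cluster share or lack. They belong to the first H1, H3 and H4 genes along the chromosome from H1-1 on that have a promoter in the table, and to the first H2A gene there that stands head to head with an H2B gene, each with 300 bases in the direction of transcription (GRCh38.p14). Capitals mark matches to the letters of the TATA box (TATAAA), the CCAAT box (CCAAT) and the octamer (ATTTGCAT, the site bound by POU2F1), each searched on both strands. Position was not restricted, so a match called a TATA box can lie after the start, as TTTATA does in H1-1. Matches can overlap at their ends, and each promoter was counted once per element however many matches it held.
H1-1 (minus strand): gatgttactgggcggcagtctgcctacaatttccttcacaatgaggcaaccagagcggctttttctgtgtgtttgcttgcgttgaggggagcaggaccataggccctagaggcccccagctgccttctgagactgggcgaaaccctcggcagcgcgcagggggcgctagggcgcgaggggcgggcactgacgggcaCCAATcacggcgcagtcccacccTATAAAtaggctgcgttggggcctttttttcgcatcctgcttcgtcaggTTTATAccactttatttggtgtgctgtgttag
H2AC6 (plus strand): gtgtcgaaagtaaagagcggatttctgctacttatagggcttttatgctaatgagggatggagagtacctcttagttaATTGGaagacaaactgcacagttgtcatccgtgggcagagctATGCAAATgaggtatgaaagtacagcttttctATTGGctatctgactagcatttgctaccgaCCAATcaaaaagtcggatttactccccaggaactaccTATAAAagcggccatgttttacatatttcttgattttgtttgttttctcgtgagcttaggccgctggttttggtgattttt
H3C1 (plus strand): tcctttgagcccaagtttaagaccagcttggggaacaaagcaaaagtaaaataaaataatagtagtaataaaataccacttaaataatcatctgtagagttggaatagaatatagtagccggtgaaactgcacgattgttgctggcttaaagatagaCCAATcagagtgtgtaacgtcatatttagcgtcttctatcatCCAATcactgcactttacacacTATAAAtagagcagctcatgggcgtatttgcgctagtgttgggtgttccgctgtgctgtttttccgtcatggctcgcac
H4C2 (minus strand): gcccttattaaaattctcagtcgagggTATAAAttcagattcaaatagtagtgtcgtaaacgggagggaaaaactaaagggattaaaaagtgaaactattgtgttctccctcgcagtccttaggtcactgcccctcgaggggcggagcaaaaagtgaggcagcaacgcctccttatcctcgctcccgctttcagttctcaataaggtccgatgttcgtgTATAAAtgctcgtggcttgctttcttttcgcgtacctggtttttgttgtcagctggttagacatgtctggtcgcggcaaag

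The promoters of the cluster carried these elements in different combinations. Of the histone promoters, 86.0% held a CCAAT box, 66.0% a TATA box and 44.0% an octamer, beside 35.7%, 12.0% and 1.80% of the 27305 RefSeq promoters of the same length. All 6 H1, all 11 H2A, all 15 H2B and all 8 H3 promoters in the table held a CCAAT box, but only 3 of 10 H4 promoters did. The octamer was found in 9 of 11 H2A and 12 of 15 H2B promoters, in 1 of 8 H3 promoters, and in none of 6 H1 or 10 H4 promoters. In 7 of the 9 head-to-head H2A and H2B pairs the octamer lay in both promoters, which share most of their bases and are thus not separate cases. A match is a description of the letters and does not show that a factor binds there, and the peaks were not aligned to these promoters.

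**Figure D1:**
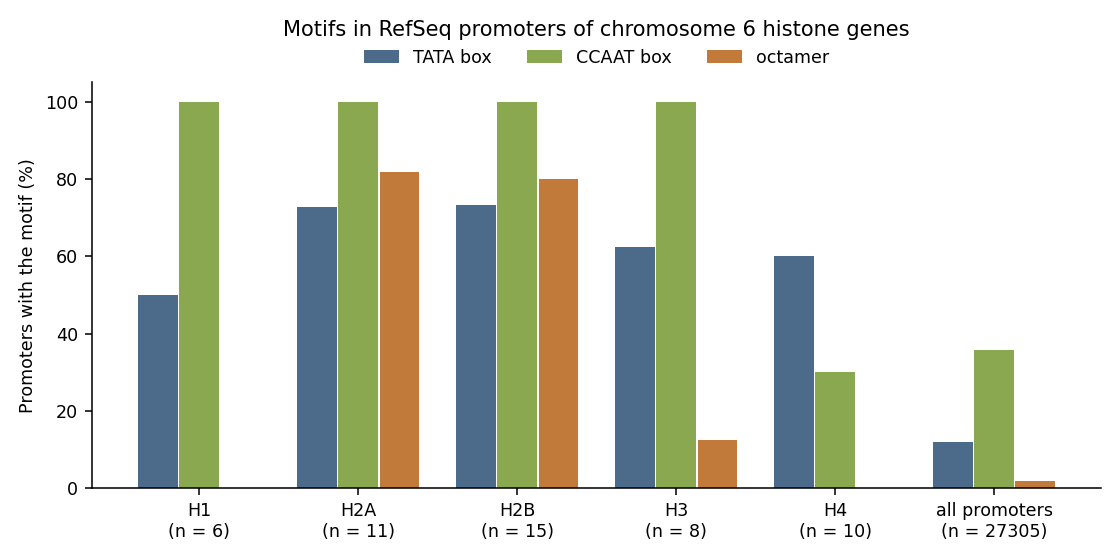
Share of RefSeq promoters (300 bases, GRCh38.p14) that hold a TATA box, a CCAAT box or an octamer on either strand, by histone family and for all promoters; bars start at 0 and n is the number of promoters. The octamer bars reach 81.8% for H2A and 80% for H2B and are at 0 for H1 and H4.

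The windows were crowded with accessible sites in every library. DMSO replicates 1 and 2 listed 54 and 55 peaks in them and tunicamycin replicates 1 and 2 listed 52 and 53, that is 135 and 138 peaks per Mb after DMSO and 130 and 133 after tunicamycin (mean 134 ± 3.23, SD, n = 4). The rest of chromosome 6 held 17.1 to 19.4 peaks per Mb (17.96 ± 1.04, SD, n = 4), measured from its first to its last listed peak and including the centromere. The mean ratio of densities was 7.46-fold, with the windows above the rest in all 4 libraries. A two-sided exact sign-flip permutation test over the 4 libraries gave p = 0.13, the smallest value that 4 libraries allow, and 0.13 after Benjamini-Hochberg adjustment over 6 measures of this family. Peaks covered 2.80% to 3.06% of the windows and 0.313% to 0.352% of the rest.

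The crowding extended past the windows. The 2 stretches between the windows, 1450 kb in all, held 80.7 to 87.6 peaks per Mb, so that the windows exceeded them by 1.56-fold on average (exact sign-flip permutation p = 0.13, higher in 4 of 4 libraries). Among 619 tiles of 275 kb laid along the chromosome from the first window, that window had rank 3 by peaks, with a mean of 34.8 peaks per list against 3.5 for the median tile. The tiles above it lay in those same stretches, the tile directly after the first window with 35.8 peaks and the tile from 27390001 to 27665000 with 40.3 peaks. Among tiles of their own lengths, the second window had rank 8 of 5688 and the third window rank 7 of 1796. Tiles were laid from each window's own start, and another start would move the ranks.

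Taken as wholes, the 3 windows differed in density, and the shortest was the fullest. The second window held 5 to 7 peaks per list (208 ± 31.9 per Mb, SD, n = 4), the first 34 or 35 (126 ± 1.82) and the third 11 to 15 (132 ± 18.2). In the second window peaks covered 6.58% ± 0.628 of the bases, against 2.48% ± 0.0849 in the first and 3.03% ± 0.187 in the third (SD, n = 4 libraries each). Its covered share lay above that of both other windows in each of the 4 libraries. At its own length of 30 kb, however, parts of the other windows were as crowded. The tiles from 26010001 to 26040000 and from 27780001 to 27810000 held a mean of 7.0 peaks per list, against 6.25 in the second window. Other tiles there held fewer, such as 4.25 from 26130001 to 26160000.

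Within the windows the sites stood in tight groups with long bare stretches between them. The median gap from a peak to its nearest neighbour in the same list was 568 to 896 bp, against 6012 to 7299 bp in the rest of the chromosome. Between 53.8% and 64.8% of window peaks had another within 1 kb, beside 27.004% to 29.9% elsewhere and 60.3% to 69.2% in the stretches between the windows. Joining regions up to 1 kb apart gave 40 groups, of which 19 held 2 or more regions and together 56 of the 77. The longest stretch without a peak in any list ran for 50.7 kb in the third window, from 27807720 to 27858435, and the next ran for 34.2 kb in the first window, from 26224420 to 26258605.

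**Figure D2:**
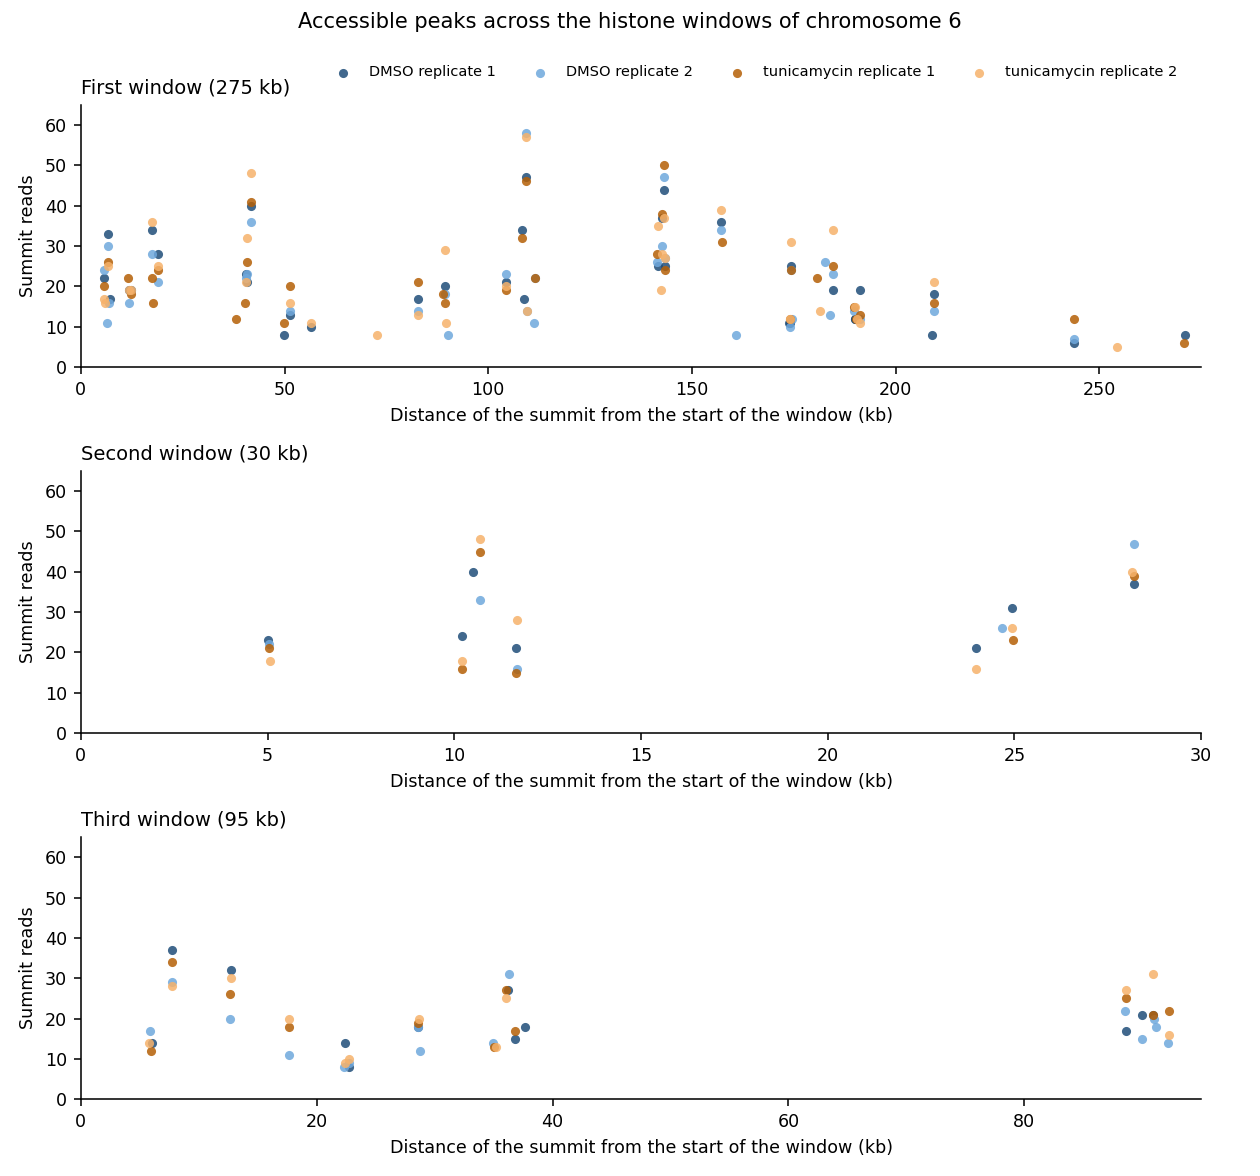
Every listed peak of the 3 windows, placed by the distance of its summit from the start of the window (kb) and by its summit reads, coloured by library. Peaks of the 4 libraries stack into shared columns, the tallest at 46 to 58 reads in the first window, with an empty stretch of 50.7 kb in the third.

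The group with the most regions common to all lists lay in the first window from 26156459 to 26158520. It held 4 regions within 2062 bp, each listed in all 4 libraries, and their best summits together carried 131 and 130 reads after DMSO and 140 and 127 after tunicamycin. The group at 26055232 to 26056800 was of the same kind, with 3 of 3 regions in every list and 84, 81, 83 and 101 reads in DMSO replicates 1 and 2 and tunicamycin replicates 1 and 2. In contrast, the group with the most regions, 5 between 27804811 and 27807719 in the third window, held only 1 that was listed in all libraries. Summits of the common regions were less fixed than elsewhere: the 4 summit positions of a region spread over a median of 57 bp in the windows (36 regions) and 40 bp in the rest of chromosome 6 (2060 regions). This spread has 1 value per region and was not tested.

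Peaks in the windows were also wider. Their median width was 183 and 191 bp after DMSO and 184 and 196 bp after tunicamycin (188 ± 6.29 bp, SD, n = 4), beside 157 to 159 bp in the rest of the chromosome, a mean ratio of 1.196 (exact sign-flip permutation p = 0.13, wider in 4 of 4 libraries). Between 40.4% and 49.1% of window peaks exceeded 200 bp, against 27.9% to 28.7% elsewhere. The stretches between the windows shared much of this, with medians of 164 to 180 bp and 35.7% to 39.3% of peaks over 200 bp, and the windows exceeded their median width by a ratio of 1.108 (4 of 4 libraries, exact sign-flip permutation p = 0.13). Among peaks of at least 150 bp the log2 ratio of widths to the rest of the chromosome was 0.13, against 0.26 for all peaks. Width was uneven among the windows. In the first, medians were 160 and 190 bp after DMSO and 159 and 186 bp after tunicamycin. Replicate 1 of each group was thus near the rest, and below its 164.5 and 164 bp in the stretches between the windows. The second had medians of 209 to 214.5 bp. The third had 211 and 153 bp after DMSO and 204 and 236.5 bp after tunicamycin. The widest region of the second window, 27100276 to 27100968, had peaks of 569 and 693 bp after DMSO and 560 and 570 bp after tunicamycin. The widest of the first window, 26021615 to 26022195, was covered by 1 peak per list of 343 and 533 bp after tunicamycin, while both DMSO lists split it into 2 peaks, the better of 348 and 216 bp. In the third window the widest was 27860808 to 27861355, with best peaks of 428, 258, 439 and 449 bp in DMSO replicates 1 and 2 and tunicamycin replicates 1 and 2.

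A high local background set the histone windows apart more clearly than the height of their summits. The background is the number of reads that the peak caller expected at a summit, recovered here together with the summit reads from the authors' fold and p-value, and the fold is the ratio of the 2, each plus 1. The median background at window peaks was 1.89 and 1.85 reads after DMSO and 1.85 and 1.93 after tunicamycin, against 0.400 to 0.419 in the rest of chromosome 6. The mean ratio was 4.57-fold, and on the log2 scale the 4 libraries ran from 2.15 to 2.21 (SD 0.0302). The windows were higher in all 4 libraries, with an exact sign-flip permutation p of 0.13, the smallest possible. Against the stretches between the windows, which were less crowded than the windows, the background was 2.06-fold higher (4 of 4 libraries, exact permutation p = 0.13).

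Summits were taller too, but less so. The median window summit carried 21 and 18 reads after DMSO and 21 and 20 after tunicamycin, against 14 or 15 reads in the rest of the chromosome, a mean ratio of 1.40 (4 of 4 libraries, exact sign-flip permutation p = 0.13). It did not stand apart from the stretches between the windows, where medians ran from 18 to 21 reads (ratio 1.02, higher in 2 of 4 libraries, exact permutation p = 1.0). The fold over background was therefore lower in the windows, with medians of 7.96 and 7.42 after DMSO and 8.51 and 7.52 after tunicamycin, beside 9.88 to 10.4 elsewhere (ratio 0.778, lower in 4 of 4 libraries, exact permutation p = 0.13). A summit of 20 reads has an exact Poisson 95% interval of 12.2 to 30.9 reads, for counting error only, so single summits are imprecise.

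**Figure D3:**
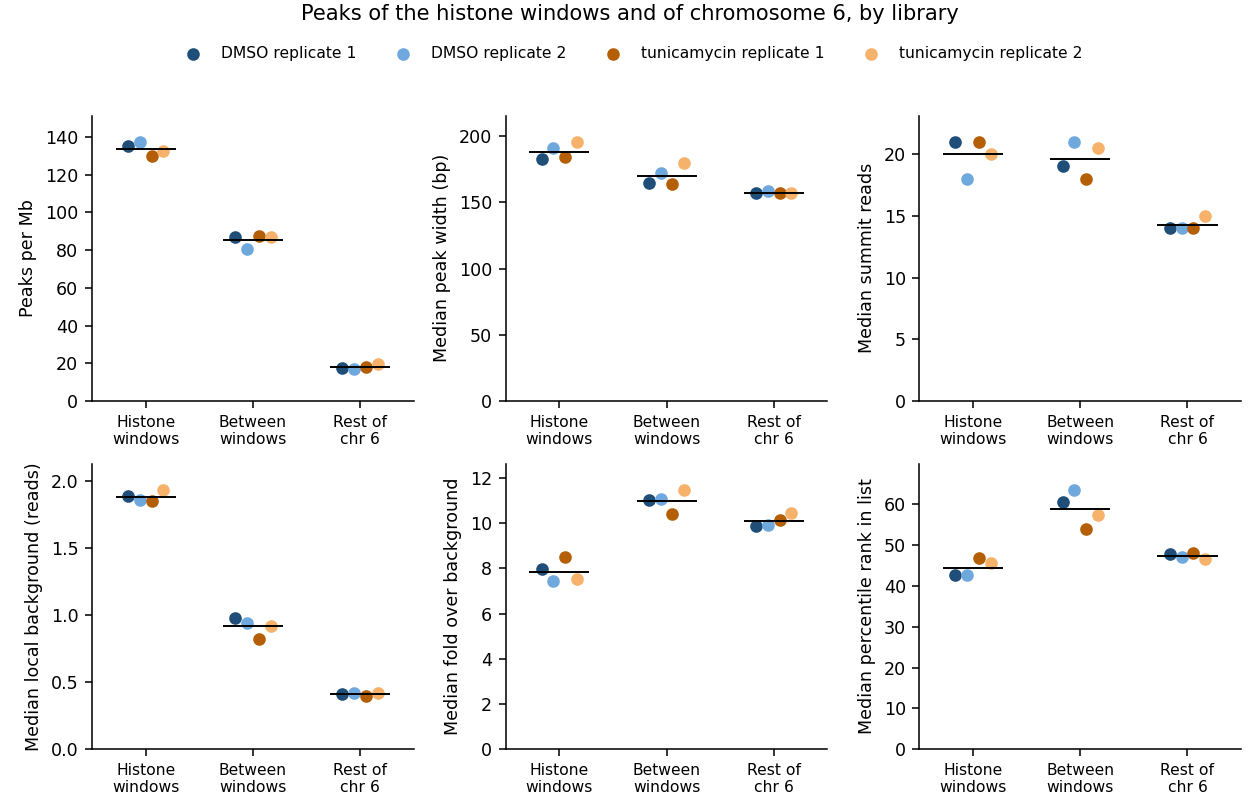
Per-library values (points) and their mean (line) for the histone windows, the 2 stretches between them and the rest of chromosome 6, which includes those stretches: peaks per Mb, median width, summit reads, local background, fold and percentile rank in the library's own list. The local background of the windows, 1.85 to 1.93 reads, lies above both other areas in every library, while their fold, 7.42 to 8.51, lies below both.

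At equal height, a summit in the histone windows therefore counted for less. The direction follows by construction from the higher background, and only its size is described here. Of peaks with 18 to 22 summit reads, those in the windows had a median fold of 6.80 (15 peaks), 7.39 (10), 8.61 (15) and 7.06 (10) in DMSO replicates 1 and 2 and tunicamycin replicates 1 and 2, and those in the rest of the chromosome 13.0 to 13.6. Their median percentile ranks by q-value were 33.3, 39.0, 44.3 and 32.8 in the windows and 62.3 to 67.3 elsewhere. Over all peaks the median rank was 42.7 in both DMSO libraries and 46.8 and 45.6 after tunicamycin, below the 46.4 to 48.0 of the rest in 4 of 4 libraries (mean difference -2.84 ± 2.10 percentile points, SD, n = 4; exact sign-flip permutation p = 0.13). Without the third window this difference was -0.65 points and its direction differed among libraries (exact permutation p = 0.5). The second window alone had a mean median rank of 59.0, above the 47.3 of the rest. Only 1 or 2 window peaks per list ranked above percentile 90 of their list by q-value.

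Neighbouring peaks went with a higher background, in the windows and outside. With 2 or more other peaks within 5 kb, the median background was 2.10 to 2.36 reads in the windows (27 to 36 peaks per list) and 0.986 to 1.12 in the rest of the chromosome. With no neighbour in that distance it was 0.355 to 0.682 in the windows (5 to 9 peaks) and 0.234 to 0.249 elsewhere. With 1 neighbour it was 1.70, 1.12 and 1.91 reads in DMSO replicate 2 and tunicamycin replicates 1 and 2 against 0.639 to 0.656 elsewhere, but in DMSO replicate 1 it was 0.591 (9 peaks) against 0.615. Other parts of the chromosome reached the level of the first window: of the 461 tiles of 275 kb with peaks in every list, that from 159115001 to 159390000 had 1.86 reads against 1.85 for the first window and 0.340 for the median tile. Some tiles stood higher: by background the second window had rank 12 of 1466 tiles of its length and the third rank 6 of 936. The highest of those tiles, from 20400001 to 20430000 and from 20360001 to 20455000, had 3.48 reads. Some of the higher tiles lay in or across other histone windows, such as 26130001 to 26160000 with 2.88 reads and 25965001 to 26060000 with 1.92. The 2 tiles with more peaks than the first window had 0.890 and 1.130 reads, below it. Tiles with at least as many peaks as the second window had 0.559 to 2.72 reads against its 2.38. For the third they had 0.763 to 1.990 against its 1.84, so that crowded tiles lay above and below these windows in background. Some of these crowded tiles lay in or across other histone windows, such as 26010001 to 26040000 and 26155001 to 26250000. The lowest and highest of these values came from tiles outside the windows.

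**Figure D4:**
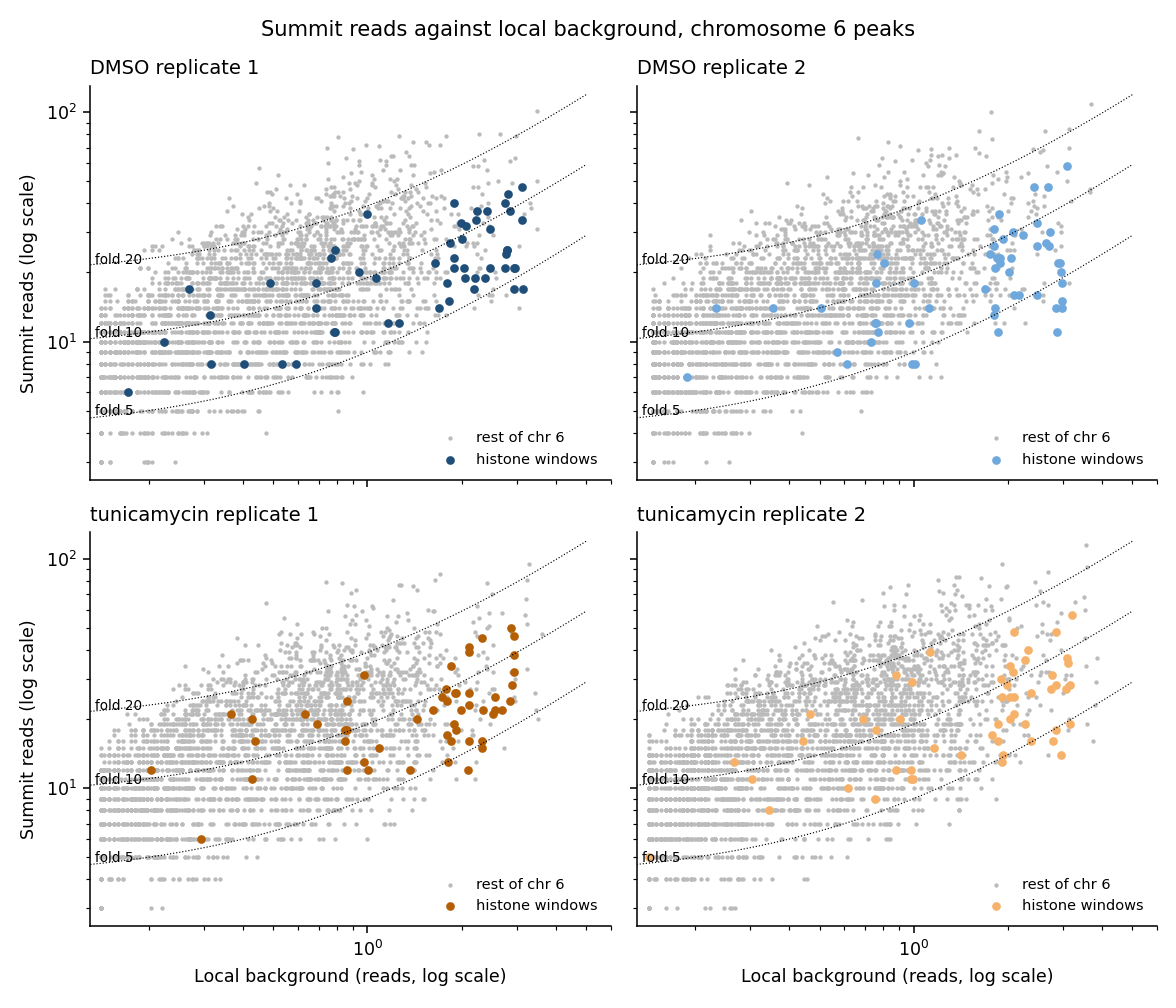
Summit reads against local background (both log scales) for every chromosome 6 peak of each library, with histone-window peaks coloured and the rest in grey; dotted lines mark folds of 5, 10 and 20. Window peaks gather at the right, with medians of 1.85 to 1.93 background reads against 0.400 to 0.419 for the grey points.

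The strongest site of the cluster was the region at 26123991 to 26124462 in the first window. It carried 47 and 58 reads after DMSO and 46 and 57 after tunicamycin, over a background of 2.93 to 3.21 reads, with a mean percentile rank of 89.7. The groups overlapped, and replicate 2 was the higher library in both. A region at 26172039 to 26172330 ranked next at 87.7, with fewer reads (36 and 34 after DMSO, 31 and 39 after tunicamycin) but folds of 16.2 to 18.8, since its background was 0.975 to 1.129 reads. The region at 26056531 to 26056800 had 40 and 36 reads after DMSO and 41 and 48 after tunicamycin, so that both tunicamycin summits stood above both DMSO summits by as little as 1 read. By percentile rank among common regions the groups overlapped there (82.6 and 74.6 after DMSO, 79.7 and 84.6 after tunicamycin). The summit of this region fell on the same base in all 4 libraries.

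Others among the 15 best-ranked common regions were spread over all 3 windows. At 26157905 to 26158252 the summit carried 44 and 47 reads after DMSO and 50 and 37 after tunicamycin, which were the highest and the lowest of the 4. At 27118045 to 27118258 in the second window it carried 37 and 47 reads after DMSO and 39 and 40 after tunicamycin, again overlapping. The widest region of that window, at 27100276 to 27100968, carried 40 and 33 reads after DMSO and 45 and 48 after tunicamycin, so that here the groups did not overlap. The best of the third window, at 27777674 to 27777995, carried 37 and 29 reads after DMSO and 34 and 28 after tunicamycin. In the first window the region at 26189167 to 26189340 had 25 and 24 reads after DMSO and 24 and 31 after tunicamycin, over a background of 0.763 to 0.876 reads.

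The remaining 7 of the 15 had mean percentile ranks of 58.6 to 64.0. The region at 26097647 to 26097793 reached 63.7 with only 13 to 21 reads, on a background of 0.233 to 0.365 reads. By contrast, 26157341 to 26157880 had a like rank of 63.0 with 28 to 38 reads on 2.73 to 3.17. The others were at 26021615 to 26022195, 26032147 to 26032523, 26224201 to 26224419, 27094916 to 27095131 and 27805936 to 27806436.

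The number of listed sites in the cluster was similar in both groups. The tunicamycin libraries listed 52 and 53 window peaks and the DMSO libraries 54 and 55, a difference of means of -2.0 peaks (52.5 ± 0.707 against 54.5 ± 0.707, SD, n = 2 each). The groups did not overlap, and a two-sided exact permutation test gave p = 0.33, the smallest that 2 against 2 libraries allow. The difference was 3.5 peaks in the other direction with a -log10 q of at least 10 and 2.0 in the other direction with peaks of at least 150 bp, so its direction depended on the peaks counted. In the rest of the chromosome the lists held 2944 and 2913 peaks after DMSO and 3074 and 3301 after tunicamycin. Window peaks were thus 1.80% and 1.85% of the chromosome's peaks after DMSO and 1.66% and 1.58% after tunicamycin (exact permutation p = 0.33).

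The other totals of the windows were similar in both groups. Peaks covered 11555 and 11670 bp after DMSO and 11209 and 12250 bp after tunicamycin, which overlap (exact permutation p = 1.0). Summit reads of the window peaks summed to 1198 and 1138 after DMSO and 1169 and 1214 after tunicamycin, also overlapping (exact permutation p = 0.667). As a share of all summit reads on chromosome 6 they were 2.37% and 2.25% after DMSO and 2.179% and 1.985% after tunicamycin, a difference of -0.23 percentage points (exact permutation p = 0.33), beside the rise of peaks elsewhere on the chromosome. Without tunicamycin replicate 2 it was -0.13 points and without tunicamycin replicate 1 it was -0.33 points. The shift was -0.07 points with a -log10 q of at least 10 and -0.04 points with peaks of at least 150 bp. The median percentile rank of all window peaks did differ without overlap. It was 42.7 in both DMSO libraries and 46.8 and 45.6 after tunicamycin (exact permutation p = 0.33).

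Across the lists, the windows held a somewhat lower share of common regions than the genome and a higher share found in 1 list. These shares were not tested. A peak was listed in all 4 libraries in 36 of the 77 regions (46.8%, beside 51.3% of all regions). It was in 3 lists in 6 regions (7.79%, beside 12.8%), and in 1 list only in 25 (32.5%, beside 22.3% of all regions). The second window had 5 of 7 regions in all lists, the third 7 of 16 and the first 24 of 54. Regions found in 1 list were 23 of 54 in the first window (42.6%), 0 of 7 in the second and 2 of 16 in the third (12.5%). Of the regions found in 1 list, 6 and 7 were private to DMSO replicates 1 and 2, and 5 and 7 to tunicamycin replicates 1 and 2. Over all regions these counts were 3624, 3685, 4192 and 6042, with most in tunicamycin replicate 2. They were narrow and low, with 14 of 25 under 130 bp and a median of 12.0 summit reads against 24.9 in the common regions.

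Only 1 region was gained and 1 lost with tunicamycin. A gained region has a peak in both tunicamycin lists and in neither DMSO list, as 3.65% of all regions do, and a lost region has the reverse, as 1.86% do. A further 8 window regions (10.4%) were listed in exactly 1 library of each group, as 8.07% of all regions are. The shares gained and lost in the windows, 1.30% each, were thus no higher than those of the genome. The gained region, at 26027099 to 26027297 in the first window, had 18 and 19 reads in peaks of 117 and 161 bp, at percentile ranks 27.5 and 30.4. The lost region, at 27859751 to 27860026 in the third window, had 21 and 15 reads in peaks of 215 and 100 bp, at ranks 26.7 and 5.55. Both were weak calls, and the gained region was no longer gained when peaks up to 250 bp apart were merged.

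No rank change with tunicamycin passed the test among the 36 common regions. Peaks were ranked by q-value over the 40447 regions common to all libraries, and normal scores of the ranks were compared with limma, with Benjamini-Hochberg adjustment over all of them. Genome-wide 0.0519% of regions were called at an adjusted p of 0.05, 0.0346% upward and 0.0173% downward, and 0 of the 36 were, in either direction, the smallest adjusted p from limma being 0.737. At an unadjusted p under 0.05 there were 0 of the 36, against 7.33% of all regions. With a constant prior spread 2 of the 36 were under it, without DMSO replicate 2 there were 3 and without tunicamycin replicate 1 there was 1. The 21 calls among all regions became 0 with a constant prior spread and 4 without tunicamycin replicate 1. On simulated data for this comparison the test recovered 87.0% of shifts of 2 score units and 8.0% of shifts of 1 unit. All 36 changes lay between -0.84 and 0.82 units, a range in which the test has little power.

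Changes of rank went both ways in the cluster. Scores were higher after tunicamycin in 16 regions and lower in 20, with a median change of -0.15 beside 0.000440 over all common regions. In 6 of the 36 regions each tunicamycin rank exceeded each DMSO rank (16.7%, beside 18.0% of all common regions), and in 9 each was lower (25.0%, beside 18.3%). In the first window 3 lay above and 5 below, in the second 1 and 2, and in the third 2 and 2.

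On the normal-score scale, which stretches differences near the ends of the ranking, the largest shifts in each direction were seen at low-ranked regions. In percentile points the largest fall was at 26021615 to 26022195, from rank 61.0 to 35.0, and the largest rise at 26199563 to 26199737. At 26055232 to 26055475 the summit carried 23 and 22 reads after DMSO and 16 and 21 after tunicamycin, and the mean rank among common regions moved from 32.1 to 10.3 (score change -0.84 ± 0.476, SE, limma adjusted p = 0.739). The groups did not overlap there. Less than 100 bp further on, the region at 26055570 to 26056051 moved the other way, from 21 and 23 reads to 26 and 32, and from a mean rank of 29.9 to 44.97 (0.40 ± 0.408, SE, limma adjusted p = 0.896). The pair lies in the group at 26055232 to 26056800 described above.

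In the third window, 27858436 to 27858688 went from 17 and 22 reads to 25 and 27, and from rank 9.14 to 26.9 (0.82 ± 0.494, SE, limma adjusted p = 0.769). The score change was 0.42 without DMSO replicate 1. In the first window, 26199563 to 26199737 went from 19 and 23 reads to 25 and 34, and from rank 25.2 to 49.8 (0.69 ± 0.414, SE, limma adjusted p = 0.762), a change of 0.39 without DMSO replicate 1. Neither pair of groups overlapped, and the widths of these peaks stayed between 146 and 253 bp. These score changes were the largest increases and did not pass the test.

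Decreases of like size stood at the start of the first window. The region at 26020545 to 26020768 had 22 and 24 reads after DMSO and 20 and 17 after tunicamycin (-0.68 ± 0.452, SE, limma adjusted p = 0.805), a change of -0.27 without tunicamycin replicate 2 and -1.10 without tunicamycin replicate 1. Its neighbour at 26021615 to 26022195 had 33 and 30 reads after DMSO and 26 and 25 after tunicamycin (-0.68 ± 0.378, SE, limma adjusted p = 0.737). In both, each tunicamycin library was below each DMSO library. The region at 26206147 to 26206337 fell in mean rank from 21.5 to 6.10, but with 19 and 12 reads after DMSO and 13 and 11 after tunicamycin the groups overlapped (-0.72 ± 0.530, SE, limma adjusted p = 0.835), and the change was -0.19 with DMSO replicate 1 left out, -0.39 if tunicamycin replicate 2 was dropped and -1.26 if DMSO replicate 2 was.

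**Figure D5:**
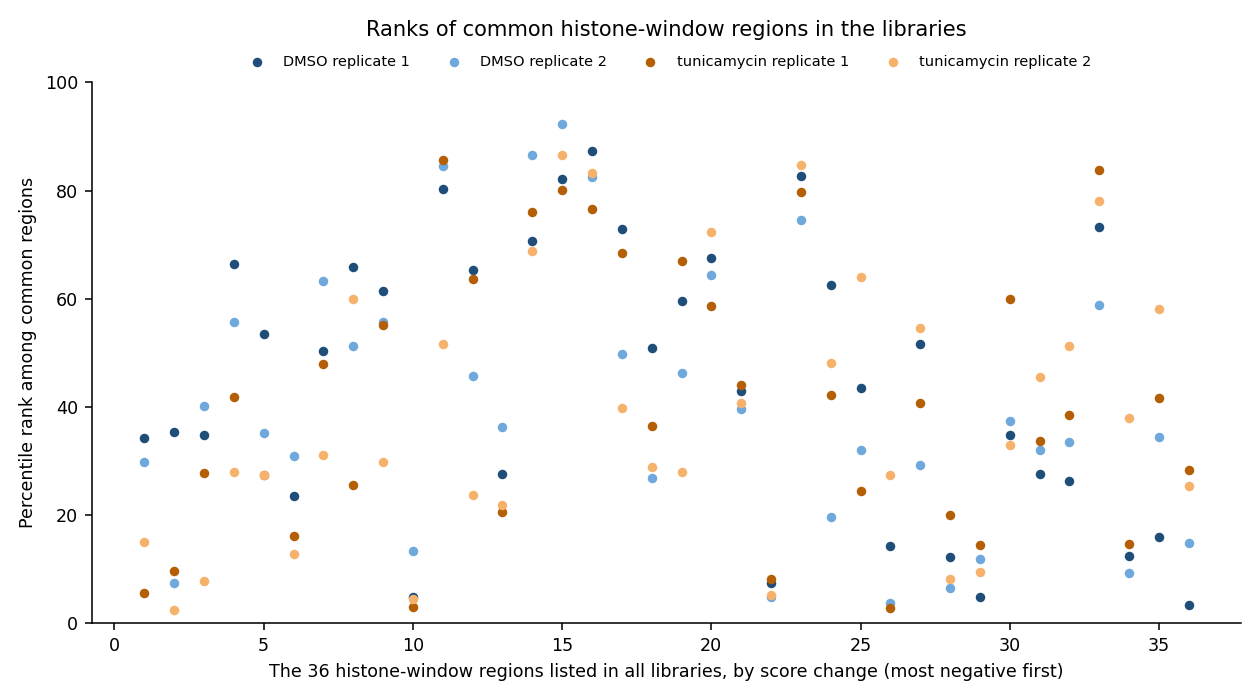
Percentile rank among the 40447 common regions of each of the 36 histone-window regions listed in all libraries, 1 column per region ordered by score change from the most negative on the left, with 1 point per library. The 4 points of most columns intermingle; tunicamycin lies wholly above DMSO in 6 columns and wholly below in 9.

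At 5 of the 6 window edges, all summits of the nearest region outside were lower than those of the nearest region inside. Each comparison rests on 1 region per side. It was not set against neighbouring regions elsewhere and was not tested. At the start of the first window the region inside carried 17 to 24 reads in 4 lists and that outside 6 and 11 in 2 lists, and at its end the values were 8 in 1 list inside and 5 and 7 in 2 lists outside. The second window had 18 to 23 reads inside its start against 5 in 1 list outside, and 37 to 47 inside its end against 12 and 15 in 2 lists outside. The third window had 12 to 17 reads inside its start against 9 in 1 list outside. At the end of the third window the values overlapped, with 14 to 22 reads in 3 lists inside and 12 to 16 in all 4 lists outside.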

How the data were processed

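Peaks were measured by ATAC-seq in 2 DMSO and 2 tunicamycin libraries of HCT116 cells. Per the submitters' processing notes, the tools were MACS2 2.2.7.1, deepTools, Picard 2.18.23, SAMtools, Bowtie2 2.3.5.1 and Trim Galore, with hg19 as build. Their settings, including read extension and any shift for the transposase, were not given in the sources used here. Deposited by the authors was 1 list per library with a score (10 times the -log10 q-value, cut to a whole number), a ratio (fold of summit over local background), the -log10 p-value and -log10 q-value, and the offset of each summit within its peak. No listed peak was under 100 bp wide, and read totals were not used.

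Summit reads and local background were recovered as the whole-number pileup and the background that give the deposited fold and Poisson p-value; a solution within 0.001 existed for 100% of peaks in every library. What was piled up is not known, so "reads" means this pileup. Lists were merged wherever peaks shared at least 1 bp (Python 3.11.15, pandas 2.3.3, numpy 2.4.6). Libraries were the replicates: the windows and the rest of chromosome 6 were compared by sign-flip and the groups by label permutation, both exact and two-sided (scipy 1.17.1). Normal scores of ranks went into limma 3.58.1 (R 4.3.3), whose prior spread was allowed to vary with mean score, fitted on all common regions. Merging, recovery and the limma test were tested on simulated data.

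The members, lists and tests were chosen with earlier results of these data known. Named regions were the 15 common regions of best mean rank, all gained and lost regions, the 6 largest score changes and the widest region of each window. The region at 26055570 to 26056051, groups of regions and window edges were added after values were seen, as were the local background, summit reads, fold, the tiles, the strata, the motifs and the leaving out of each window.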

Additional observations from a re-analysis of the deposited data

How the results depend on the processing

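With 4 libraries no test over libraries could pass 0.05, so stability here means direction. By the mean over libraries, the windows exceeded the rest of chromosome 6 in density, width, background and summit reads, and were lower in fold and rank, under every alternative run (stricter q-values, equal lists, peaks of at least 150 bp, each library or window left out). Against the stretches between the windows, the log2 ratio fell from 2.90 to 0.65 for density and from 2.19 to 1.04 for background, and the rank difference went from -2.84 to -14.4 points; with peaks of at least 150 bp it was -10.2 points. For rank, not every library was lower with a -log10 q of at least 10 or without the first window (exact permutation p = 0.25 each), or without the third (0.5). The tunicamycin minus DMSO difference in window peaks was -2.0 as listed and -4.5 with lists cut to the shortest. It was 0.0 with a -log10 q of at least 5, 3.5 with at least 10 and 2.0 with peaks of at least 150 bp. With a library left out it was -2.5 to -1.5. Without the first window the difference was -1.5, without the second -2.5 and without the third 0.0.

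Of single regions, 1 was gained and 1 lost as listed. With a -log10 q of at least 5 there were 2 gained and 0 lost, with at least 10 there were 3 and 0, with lists cut to the shortest 2 were lost, with merging up to 250 bp 0 were gained, and with a reciprocal overlap of 50% 2 were lost. Leaving out a library gave 2 to 8 gained and 2 to 8 lost, since a group of 1 library needs only 1 list. In limma, 0 window regions were called under every alternative run, while calls over all regions ran from 0 (constant prior spread, or ranks by fold) to 35 (replicate block). No pairing by replicate number is stated. Deviations of same-numbered libraries from their group means correlated at 0.0111 over 40447 regions, so their ranks shared little. This value cannot tell whether those libraries were made together. With the replicate block, limma again called 0 window regions, and the differences of -2.0 peaks and -0.23 percentage points stood unchanged, as they must, with 0.5 the smallest p that permutation within blocks allows. Summits of about 20 reads limit what can be seen at a single site.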
